A study of Mus musculus with 6 samples.

Results

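Atf4 and 9 further genes of the integrated stress response (Ddit3, Trib3, Ppp1r15a, Asns, Chac1, Sesn2, Eif2ak3, Atf5, and Eif4ebp1) were followed through the cell types of dispersed mouse pancreatic islets and between genotypes. The genes were picked by symbol, 10 of the 32285 genes that the files list, and all 10 were found. Single-cell RNA sequencing (10x 3′ chemistry, in which each captured mRNA molecule is counted as a unique molecular identifier, UMI) had been run on islets of 3 WT and 3 β14-3-3ζKO mice, 6 libraries in all, from C57/BL6 animals aged 12 to 14 weeks. Both groups carried the Ins1-CreThor allele, which drives Cre recombinase from the insulin 1 locus and so in β cells. The KO mice also carried Ywhaz alleles with loxP sites around exon 4, so that 14-3-3ζ, the scaffold protein that Ywhaz encodes, was to be deleted in β cells and not in the other islet cells. Because the WT littermates carry Cre too, an effect of Cre itself would be common to both groups. Islets had rested overnight in culture before they were dispersed and depleted of dead cells, so that every level below is that of cultured and dissociated cells.

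The integrated stress response is a switch in protein synthesis. Several kinases, among them PERK (Eif2ak3), which senses unfolded protein in the endoplasmic reticulum (ER), phosphorylate the translation initiation factor eIF2α; most mRNAs are then translated less, whereas a few, with Atf4 as the best-known case, are translated more. ATF4 in turn switches on genes for amino acid supply, redox balance, and feedback, and with CHOP (Ddit3) takes part in the decision between recovery and cell death under lasting ER stress. β cells make insulin in large amounts and are known to depend on PERK. Because ATF4 and ATF5 are controlled in large part at translation, mRNA counts do not read the amount of these proteins.

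The starts of 5 of these genes are shown because 4 of them hold a match to a sequence known to be bound by ATF4 or its relatives, whereas Ddit3, the member read most closely below, does not in the same window. The RefSeq sequences (GRCm38.p6) run from 250 bases before the annotated start to 50 bases after it, on the strand of the gene. Capitals mark matches on either strand to TGATGNAA, the core of the composite site of C/EBP and ATF proteins, or to TGACGTCA, the palindromic cyclic AMP response element. No match overlapped another.
Chac1 (chr2:119350992-119351291, plus strand): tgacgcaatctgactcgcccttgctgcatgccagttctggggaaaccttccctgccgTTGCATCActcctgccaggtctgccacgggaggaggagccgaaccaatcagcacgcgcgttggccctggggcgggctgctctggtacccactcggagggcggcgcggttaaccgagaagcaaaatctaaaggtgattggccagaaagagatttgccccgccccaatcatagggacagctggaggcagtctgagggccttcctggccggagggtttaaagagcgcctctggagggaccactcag
Trib3 (chr2:152344011-152344310, minus strand): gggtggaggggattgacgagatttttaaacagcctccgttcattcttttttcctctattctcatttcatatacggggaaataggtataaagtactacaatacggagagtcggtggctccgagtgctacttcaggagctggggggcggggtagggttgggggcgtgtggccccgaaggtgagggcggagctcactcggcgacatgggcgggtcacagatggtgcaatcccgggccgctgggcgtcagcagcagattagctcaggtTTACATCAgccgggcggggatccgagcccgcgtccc
Asns (chr6:7693160-7693459, minus strand): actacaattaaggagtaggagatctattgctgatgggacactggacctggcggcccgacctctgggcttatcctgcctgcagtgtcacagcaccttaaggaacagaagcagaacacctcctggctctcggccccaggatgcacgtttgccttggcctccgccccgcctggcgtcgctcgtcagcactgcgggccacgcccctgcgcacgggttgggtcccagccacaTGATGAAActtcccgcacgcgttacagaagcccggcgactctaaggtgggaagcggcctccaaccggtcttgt
Ppp1r15a (chr7:45526219-45526518, minus strand): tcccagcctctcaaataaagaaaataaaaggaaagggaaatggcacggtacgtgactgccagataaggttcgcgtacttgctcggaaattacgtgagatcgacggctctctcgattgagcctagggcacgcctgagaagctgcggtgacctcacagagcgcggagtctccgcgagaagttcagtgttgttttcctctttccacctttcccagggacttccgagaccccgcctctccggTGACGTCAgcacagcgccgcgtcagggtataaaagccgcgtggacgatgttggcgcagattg
Ddit3 (chr10:127290543-127290842, plus strand): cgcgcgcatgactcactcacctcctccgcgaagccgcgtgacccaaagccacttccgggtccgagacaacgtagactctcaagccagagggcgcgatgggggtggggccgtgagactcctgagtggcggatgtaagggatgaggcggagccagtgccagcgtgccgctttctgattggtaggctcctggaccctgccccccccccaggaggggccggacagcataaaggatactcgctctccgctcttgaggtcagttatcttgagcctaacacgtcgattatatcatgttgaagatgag

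The TGATGNAA match began at position −193 relative to the start in Chac1 and at −23 in Asns, and at 14 bases past the start in Trib3; those of Chac1 and Trib3 lay on the reverse strand. Ppp1r15a held TGACGTCA at −12. Among all 32851 promoter windows in the table, 3.97% held TGATGNAA, compared with 3 of the 9 members with an entry, and 1.79% held TGACGTCA, compared with 1 of 9. The shorter CCACG, part of the ER stress response element, stood in 32.8% of all windows and in 6 of the 9. Eif4ebp1 had no entry. These matches are letters in a window, no match says only that the letters are not in it, and no binding was measured.

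The libraries held 74083947 to 98294915 UMIs each, and 1854 to 7626 cells per library passed the filters. Any 2 libraries shared 7 to 27 cell barcodes. Cells were grouped into clusters without using the members or the wider gene lists below, and clusters were named from marker genes. The 4615 β cell–like cells were used at 613 to 920 per library, with 15694936 to 36258248 UMIs in their sums. Cells of the KO libraries with a Ywhaz UMI had been left out. These were 40.8, 31.1, and 43.1% of the β cell–like cells of KO replicates 1 to 3, and WT cells had no such filter. Median UMIs per β cell–like cell in these KO replicates went from 30007, 22484, and 31154.5 to 27558.5, 21824.5, and 29197. The other types compared had 56 to 238 α cell–like cells per library, 146 to 209 δ cell–like, 127 to 322 endothelial-like, 61 to 188 stellate cell–like, and 44 to 144 macrophage-like. Lymphocytes were very uneven: KO replicate 2 gave 1572 B cell–like cells against 12 in KO replicate 1, and 1378 T cell–like cells against 10 in WT replicate 3, so that 3 UMIs were worth up to 59.4 CPM (UMIs of a gene scaled to a common total) there. The marker check was weakest for the δ cell–like cells, of which only 55.8% had Sst as their leading hormone, compared with 86.5% with Gcg among the α cell–like cells. RNA from β cells was found in every type. Read from Ins2, its share was 21.2 to 28.0% in δ cell–like, 5.27 to 15.1% in α cell–like, 3.43 to 38.4% in B cell–like, and 12.3 to 37.4% in T cell–like sums. Levels below are printed as counted and hold that RNA. Subtracting it, in the types other than α and δ cell–like a choice made after the data were seen, lowered some means by more than 1.5 times: Atf5 from 34.4 to 14.5 CPM and Asns from 14.9 to 5.02 in macrophage-like cells, Atf5 from 103 to 60.8 and Asns from 35.8 to 4.94 in T cell–like cells, Asns from 25.1 to 3.81 in B cell–like cells, and Atf5 from 52.5 to 33.3 and Trib3 from 6.93 to 3.90 in α cell–like cells. Further means that fell by as much were those of Trib3 and Chac1 in macrophage-like cells, of Trib3, Chac1, Sesn2, and Atf5 in B cell–like cells, and of Chac1 and Sesn2 in T cell–like cells.

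Levels are given first in CPM, scaled to all UMIs of that cell type in a library, with the lowest, median, and highest of the 6 libraries, WT and KO together. UMIs count molecules at their 3′ ends and do not grow with transcript length, and levels of different genes are set side by side on that basis. Whether genes differ in how well their mRNA is captured and counted was not tested, so orders between genes are those of counts. Neighbouring types in the order of a gene's mean level were compared by an exact 2-sided sign-flip permutation test over the 6 libraries, whose smallest possible p is 0.03125; of 70 such pairs 16 reached it, and adjusted for 70 comparisons none was under 0.05. Ranks below are therefore descriptions where the ranges overlap. The 6 libraries were from separate animals as far as the labels say, and p-values measure the spread between these libraries.

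**Figure D1:**
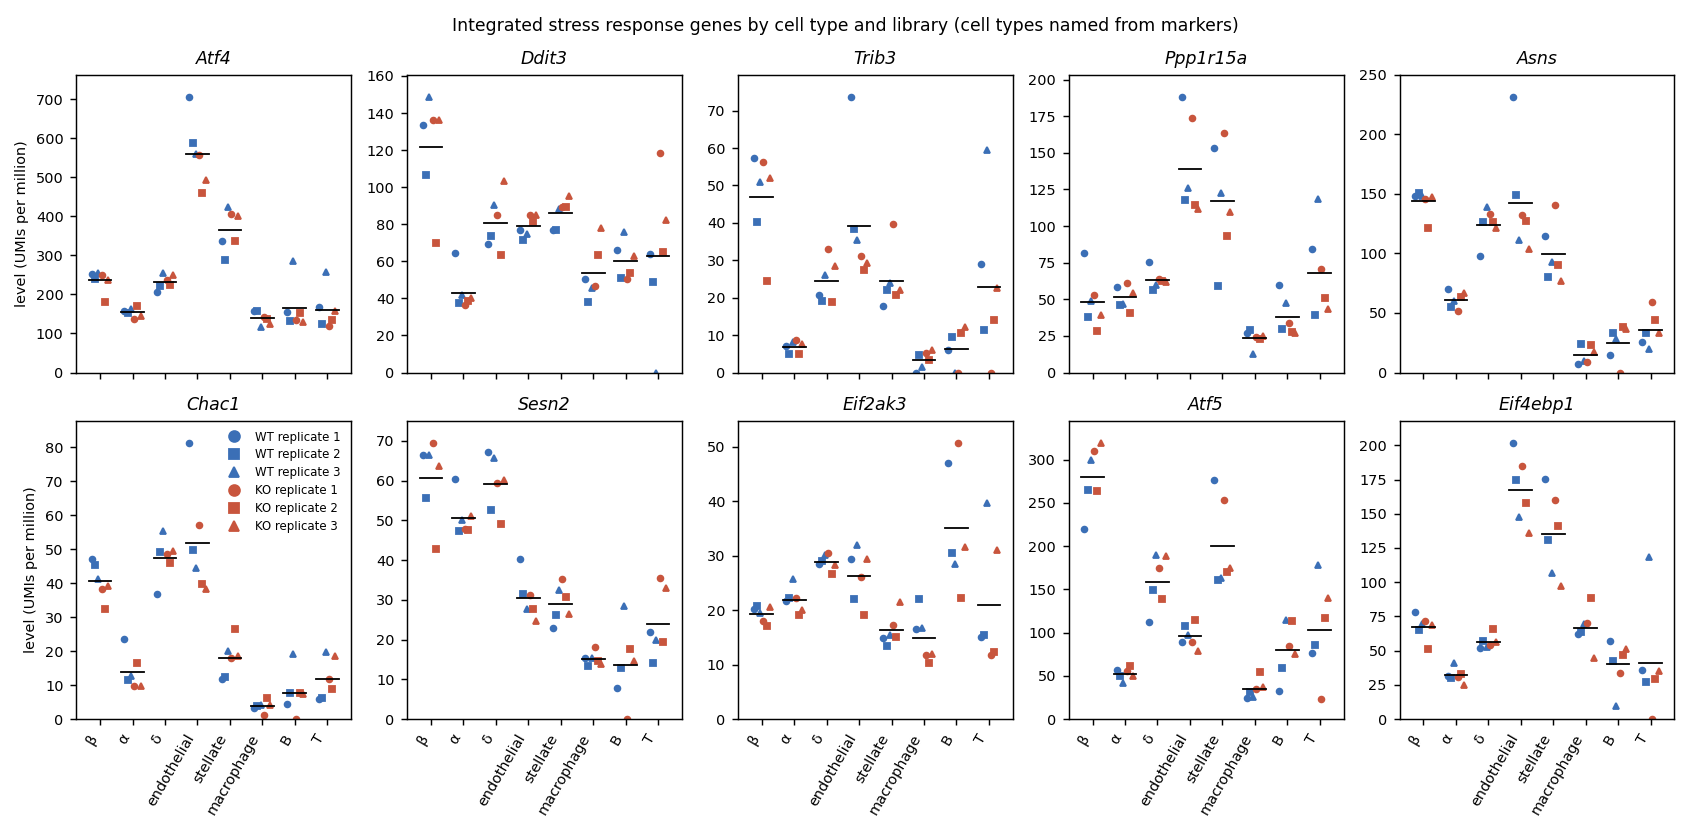
Level of each of the 10 genes, in CPM, in 8 cell types, with a point for each of the 3 WT and 3 KO libraries and a line at the mean of the 6. β cell–like cells stand highest for Atf5 and Ddit3, and endothelial-like cells for Atf4, Ppp1r15a, and Eif4ebp1.

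Among the transcription factors, Atf4 (chr15:80255184-80257541, plus strand, GRCm38) was the most abundant member in 7 of the 8 types. Endothelial-like cells led with 459, 559, and 707 CPM, followed by stellate cell–like cells with 289, 369, and 423; each of these 2 steps down the order, from endothelial-like to stellate cell–like and on to β cell–like, was seen in 6 of 6 libraries (exact p = 0.03125). β cell–like cells held 182, 244, and 256 and δ cell–like cells 206, 229.7, and 256, which did not differ beyond their spread (β higher in 3 of 6 libraries, exact p = 0.8125). The medians of the remaining types lay lower, at 155 in α cell–like, 147 in T cell–like, 144 in B cell–like, and 139.8 in macrophage-like cells.

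β cell–like cells differed in that the mean of Atf5, an ATF4 relative also tied to mitochondrial stress, exceeded that of Atf4 there. In WT replicate 1 the order was the reverse, at 219.9 CPM for Atf5 and 252 for Atf4, and the 2 genes were not compared by a test. The Atf5 gene lies at chr7:44812256-44816658 on the minus strand. Its level was 219.9, 283, and 319 CPM in β cell–like cells, 161, 172, and 277 in stellate cell–like, 113, 162, and 189 in δ cell–like, and only 42.0, 52.4, and 61.7 in α cell–like cells. The β range did not overlap the δ or α range, but overlapped that of the stellate cell–like cells (β higher in 5 of 6 libraries, exact p = 0.09375). Macrophage-like cells were lowest, at 23.7 to 54.6.

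Ddit3 (chr10:127290774-127296288, plus strand), which encodes CHOP, was also highest in β cell–like cells, with 69.8, 135, and 149 CPM. The lowest β value was that of KO replicate 2, and it lay within the range of the δ cell–like cells (63.6 to 103). Stellate cell–like cells, next in order at 76.9 to 95.1, were below β cell–like cells in the 5 other libraries (exact p = 0.0625). α cell–like cells held 36.6, 39.4, and 64.3, the lowest mean of the 8 types and below every β library.

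Eif2ak3, the ER stress kinase PERK, was the scarcest member in β cell–like cells, with 17.1, 19.9, and 20.8 CPM. The ratio of its highest to its lowest mean over the types was the smallest among the 10 genes. The highest means were in B cell–like (22.2 to 50.6) and δ cell–like cells (26.6 to 30.4), and the lowest in macrophage-like cells (10.4 to 22.1). The B cell–like values of KO replicate 1 (50.6) and WT replicate 3 (28.5) were 3 UMIs each. WT replicate 2 and KO replicate 2, with 1215 and 1572 such cells, had 30.4 and 22.2. None of the 7 neighbouring pairs of Eif2ak3 differed beyond the spread, with exact p-values from 0.09375 to 0.96875.

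The feedback genes took different places. Trib3, a pseudokinase that binds ATF4 and AKT, had 24.4, 51.4, and 57.3 CPM in β cell–like cells and 27.3, 33.2, and 73.7 in endothelial-like cells (β higher in 4 of 6 libraries, exact p = 0.25), but just 4.84, 7.44, and 8.81 in α cell–like cells. Ppp1r15a, the GADD34 subunit that guides a phosphatase back to eIF2α and so ends the response, was highest in endothelial-like (112, 122, and 188) and stellate cell–like cells (59.3, 116, and 164). β cell–like cells, with 28.2, 44.0, and 81.7, overlapped both the α (40.7 to 61.2) and the δ ranges (56.4 to 75.2) for this gene.

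Of the genes for amino acid supply and redox balance, Asns (asparagine synthetase) had 121, 148, and 151 CPM in β cell–like cells and 104, 129.9, and 232 in endothelial-like cells, against 51.5, 61.8, and 70.2 in α cell–like and 7.23, 13.3, and 23.7 in macrophage-like cells. Chac1, which breaks down glutathione, held 32.5, 40.2, and 47.0 in β, 36.8, 48.9, and 55.3 in δ, and 38.3, 47.1, and 81.2 in endothelial-like cells, 3 ranges that overlapped, and 9.74, 12.1, and 23.6 in α cell–like cells, below every β library. Sesn2, a leucine sensor that restrains mTORC1, had its highest means in the endocrine types: 42.9, 65.0, and 69.5 in β, 49.1, 59.8, and 67.2 in δ, and 47.4, 48.9, and 60.3 in α cell–like cells overlapped one another, whereas endothelial-like cells had 24.8 to 40.3 and macrophage-like cells 13.4 to 18.0. Eif4ebp1, which blocks cap-dependent translation when mTORC1 is off, was like Atf4 highest outside them, with 136, 166, and 202 in endothelial-like, 96.9, 136, and 175 in stellate cell–like, and 51.4, 68.8, and 78.1 in β cell–like cells.

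Summed over the 10 genes, β cell–like cells held 1064 ± 122 CPM (SD, n = 6), compared with 488 in α cell–like, 875 in δ cell–like, 1332 in endothelial-like, and 1090 in stellate cell–like cells. These shares are read against all UMIs, and hormone mRNA took 47.3% of the UMIs of β cell–like cells (44.9 to 52.3%) but 29.4% in α, 28.4% in δ, and 5.96% in endothelial-like cells. With the UMIs of the hormone genes left out of the total, a choice made after the data were seen, β cell–like cells had the highest mean for 6 of the 10 genes in place of 5: Chac1 moved from rank 3 to 1, Atf4 from 3 to 2, and Ppp1r15a and Eif2ak3 from 6 to 3. Whether the total includes hormone mRNA thus moved the β rank of 4 members.

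β cell–like cells were next set against the other endocrine types within the same libraries. limma-voom with the library as a block and TMM scaling, which centres the bulk of genes, gave a log2 fold change for each of 13624 genes. A gene was called at an adjusted p (Benjamini-Hochberg, all genes) under 0.05 and a log2 fold change over 0.1 in size. Against α cell–like cells 9 of the 10 members were higher in β cell–like cells, and none was lower; of all genes 27.5% were called higher and 24.4% lower, and the median of the members was 1.60 beside −0.0028 for all genes. Trib3 led with 3.16 (SE 0.297, adjusted p = 8.54e-12), then Atf5 with 2.86 (SE 0.150, adjusted p = 2.89e-19), Chac1 with 2.06 (SE 0.180, adjusted p = 1.25e-12), and Ddit3 with 1.95 (SE 0.146, adjusted p = 1.64e-14). Asns differed by 1.68, Eif4ebp1 by 1.52, Atf4 by 1.05, and Sesn2 by 0.70. Eif2ak3, at 0.27 (SE 0.106, adjusted p = 0.0314), was called by a narrow margin and lost the call in 10 of its alternatives, among them leaving out any single library, and turned to −0.17 (adjusted p = 0.161) without TMM. Ppp1r15a was not called, at 0.31 (SE 0.188, adjusted p = 0.170).

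Against δ cell–like cells 8 of 10 were called higher, with backgrounds of 25.9% higher and 20.7% lower. Trib3 (1.47), Atf5 (1.38), and Ddit3 (1.13) led again, followed by Eif4ebp1 (0.81), Asns (0.77), Sesn2 (0.59), Atf4 (0.58), and Chac1, at 0.33 (SE 0.119, adjusted p = 0.0213). Chac1 lost its call in 4 of the 6 fits that left out a library (down to 0.13) and with types set by dominant hormone (0.041), and turned to −0.22 (adjusted p = 0.0522) without TMM. Not called were Ppp1r15a, at 0.10 (SE 0.164, adjusted p = 0.653), and Eif2ak3, at −0.023 (SE 0.0875, adjusted p = 0.850). A β cell share of 21.2 to 28.0% in the δ cell–like sums was present in these values; with that share subtracted, the same 8 were called.

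**Figure D2:**
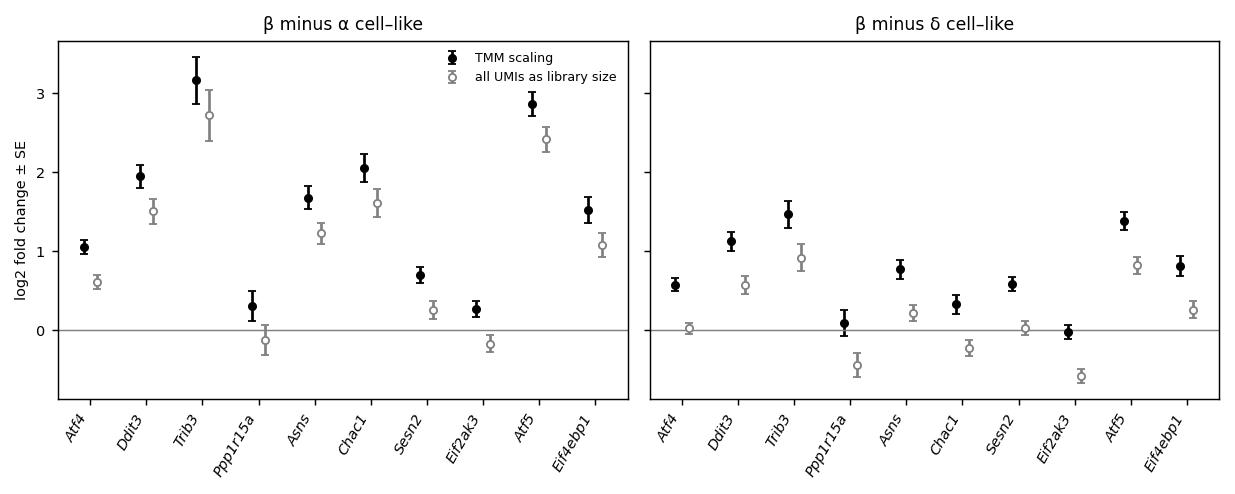
Log2 fold change of each of the 10 genes in β cell–like against α cell–like and δ cell–like cells with TMM scaling (filled) and with all UMIs as library size (open); bars are ± SE. Trib3 and Atf5 stand farthest to the β side in both comparisons, and the values without TMM lie lower for every gene.

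The choice of scale bore on these calls more than any other. With all UMIs as the library size and no TMM, added after the data were seen, the median of all genes moved from about 0 to −0.45 against α and −0.55 against δ cell–like cells, and the called genes that were higher in β fell from 53.0 to 16.3% of calls against α and from 55.6 to 6.1% against δ. On that scale 8 members were still called higher against α cell–like cells, beside 10.7% of all genes higher and 55.1% lower. Against δ cell–like cells 5 were called higher, beside 4.57% of all genes: Trib3 at 0.92 (adjusted p = 1.00e-05), Atf5 at 0.82 (adjusted p = 7.65e-09), Ddit3 at 0.57 (adjusted p = 4.18e-05), Eif4ebp1 at 0.26 (adjusted p = 0.0310), and Asns at 0.22 (adjusted p = 0.0445). Ppp1r15a, at −0.44 (adjusted p = 0.00925), and Eif2ak3, at −0.58 (adjusted p = 1.73e-07), were then called lower in β cell–like cells, with 70.1% of all genes lower. Trib3, Atf5, Ddit3, Asns, and Eif4ebp1 were thus called higher in β cell–like cells than in both other types on both scales.

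The wider lists placed the members among their pathway. Of the amino acid genes known as ATF4 targets, 18 of 21 tested were called higher in β than in α cell–like cells and 18 of 21 than in δ cell–like cells, with median log2 fold changes of 1.61 and 0.79. The cytosolic aminoacyl-tRNA synthetase genes, in a list that also held the tRNA export gene Xpot, followed with 12 and 12 of 13 higher (medians 0.97 and 0.51). All 19 ER chaperone and folding genes were higher than in α cell–like cells and 12 of 19 than in δ cell–like cells. Immediate early genes, which dissociation of tissue is known to induce, went the other way, with 12 of 16 lower in β than in α and 12 of 16 lower than in δ cell–like cells. The core machinery list held eIF2 and eIF2B subunits, kinases, phosphatase subunits, and the regulators Gcn1, Impact, and Dnajc3. Dnajc3 was also in the ER chaperone list. Of the core genes, 7 of 18 were called higher and 3 lower than in α cell–like cells, and 12 and 2 against δ cell–like cells. All these counts are on the TMM scale and share the backgrounds above.

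The comparison of genotypes came first in the design. Ywhaz, the deleted gene, had 125, 167, and 162 CPM in β cell–like cells of WT replicates 1 to 3. With every KO β cell–like cell kept, it had 18.0, 16.5, and 18.7 in KO replicates 1 to 3, which is a difference of −3.11 on the log2 scale (SE 0.0745, adjusted p = 5.54e-07, edgeR quasi-likelihood test); it was at 0 in the KO sums used below because cells with a UMI had been taken out. The 3′ tags do not read exon 4 itself.

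No member was called between β14-3-3ζKO and WT β cell–like cells by edgeR's quasi-likelihood test, and only Chac1 had an unadjusted p under 0.05. Of the 9302 genes tested 0.0108%, a single gene, passed both limits, and the unadjusted p was under 0.05 for 4.99%. By DESeq2 no member was called either. Of the 10 estimates 9 were below 0, in KO relative to WT, beside 49.0% of all genes.

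Atf4 read 252, 239, and 256 in WT replicates 1 to 3 and 249, 182, and 238 in KO replicates 1 to 3. KO replicate 2 was lowest and the other 5 libraries lay close together, so the groups overlapped, with a difference of −0.18 (SE 0.117, unadjusted p = 0.165, adjusted p = 0.875) on the log2 scale; it was −0.075 without WT replicate 1 and −0.086 without KO replicate 2. Ddit3 showed the same layout, with 134, 107, and 149 in WT replicates 1 to 3 and 136, 69.8, and 136 in KO replicates 1 to 3: 2 KO libraries lay near WT replicate 1, KO replicate 2 lay far below, and the fold change was −0.21 (SE 0.222, unadjusted p = 0.366, adjusted p = 0.902). Atf5 was the member that lay higher in KO, at 219.9, 265, and 300.1 in WT replicates 1 to 3 and 309.8, 264, and 319 in KO replicates 1 to 3; WT replicate 3 lay above KO replicate 2, the groups overlapped, and the fold change was 0.19 (SE 0.0825, unadjusted p = 0.0503, adjusted p = 0.875).

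Chac1 gave the smallest p of the members. Its level was 47.0, 45.3, and 41.2 in WT replicates 1 to 3 and 38.2, 32.5, and 39.2 in KO replicates 1 to 3. Every KO library lay below every WT library, and the log2 fold change was −0.30 (SE 0.115, unadjusted p = 0.0297, adjusted p = 0.875), or −0.16 without WT replicate 1. Asns, with 148.4, 150.9, and 148.3 in the WT and 146.0, 121.0, and 147.7 in the KO replicates in the same order, was the other member whose groups did not overlap, although the 5 libraries other than KO replicate 2 lay within 5 CPM of one another; its fold change was −0.12 (SE 0.0914, unadjusted p = 0.211, adjusted p = 0.878), or −0.037 without WT replicate 1 and −0.075 without KO replicate 2. Among all genes 2.98% lay lower in all KO libraries than in all WT libraries, and 2.96% higher. With the KO cells that hold a Ywhaz UMI kept, no member lay lower in all KO libraries, beside 1.53% of all genes. Chac1 was then at −0.25 and Asns at −0.10.

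Ppp1r15a had the lowest estimate of the 10, at −0.53 (SE 0.333, unadjusted p = 0.146, adjusted p = 0.875), from 81.7, 37.7, and 48.6 in WT replicates 1 to 3 and 53.1, 28.2, and 39.3 in KO replicates 1 to 3. WT replicate 1 was far above the other libraries, without it the estimate was −0.023, and KO replicate 1 lay above the remaining WT libraries. Trib3 read 57.3, 40.3, and 50.8 in WT replicates 1 to 3 and 56.4, 24.4, and 51.9 in KO replicates 1 to 3, where KO replicate 2 stood alone below the rest, with a fold change of −0.19 (SE 0.269, unadjusted p = 0.490, adjusted p = 0.928). The groups also overlapped for Sesn2, at −0.12 (SE 0.164, unadjusted p = 0.489, adjusted p = 0.928), for Eif4ebp1, at −0.17 (SE 0.147, unadjusted p = 0.273, adjusted p = 0.888), and for Eif2ak3, at −0.14 (SE 0.0980, unadjusted p = 0.193, adjusted p = 0.875). The median log2 fold change over the 10 members was −0.17, beside 0.0027 over all genes tested.

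**Figure D3:**
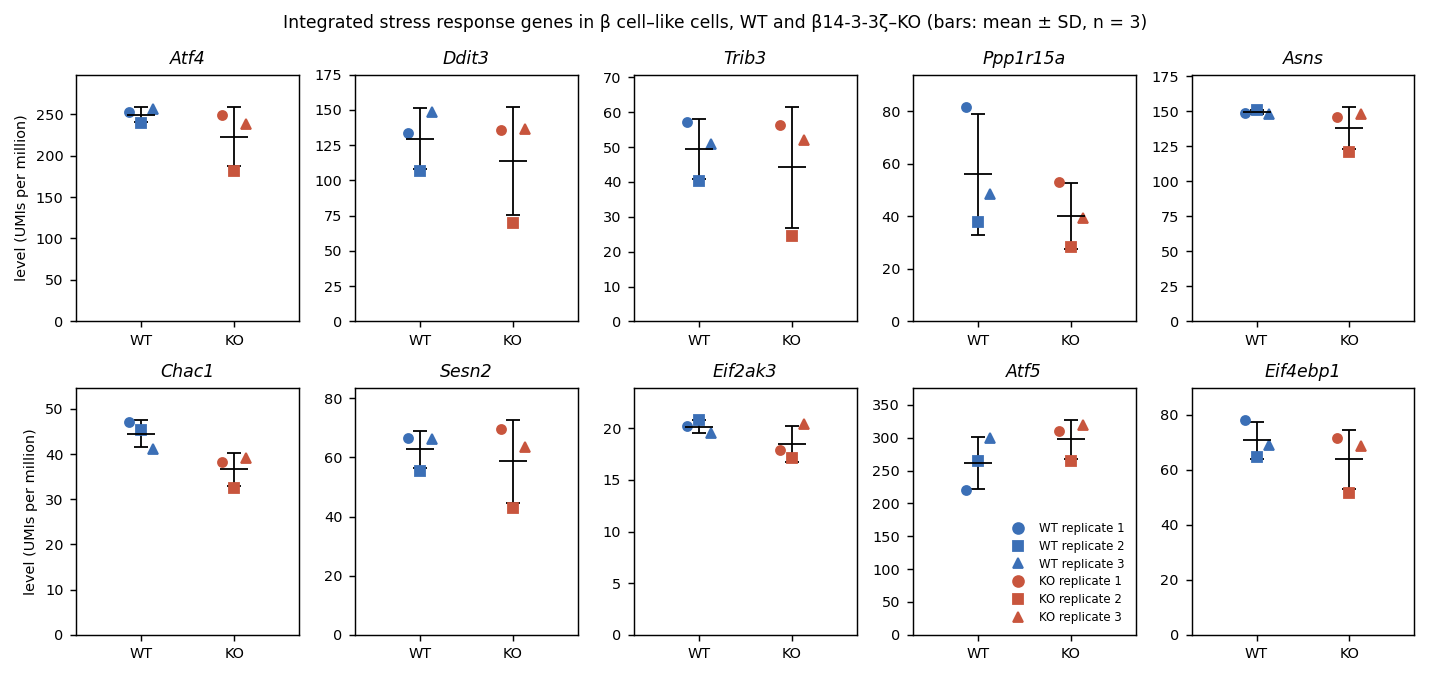
Level of each of the 10 genes in β cell–like cells, in CPM, with a point for each library (3 WT, 3 KO) and bars for the mean ± SD of each group. KO cells with a Ywhaz UMI are left out. KO replicate 2 is the lowest library for 9 of the genes, and the 2 groups are apart only for Asns and Chac1.

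The replicate numbers were taken to pair the libraries because same-numbered β cell–like sums correlated. The labels do not say what a number marks. The pairs were thus chosen on the same data that the fit with this block tests. With the replicate number as a block, 14 of 9302 genes, 0.151%, were called in place of 1, and again no member; the smallest adjusted p among the members was 0.113, for Ppp1r15a. Of the 10 members, 7 then had an unadjusted p under 0.05, 6 of them lower in KO, compared with 13% of all genes. Those were Ppp1r15a at −0.47 (SE 0.0993, unadjusted p = 0.000645), Chac1 at −0.29 (unadjusted p = 0.00500), Ddit3 at −0.24 (unadjusted p = 0.0106), Atf4 at −0.18 (unadjusted p = 0.0283), Trib3 at −0.22 (unadjusted p = 0.0443), and Eif4ebp1 at −0.16 (unadjusted p = 0.0440), all edgeR quasi-likelihood p-values, and Atf5, which was higher, at 0.19 (unadjusted p = 0.0282).

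The size and sign of these differences rested in part on single libraries. Without KO replicate 2 the estimates of Ddit3, Trib3, and Sesn2 were 0.015, 0.066, and 0.029; without WT replicate 1 those of Trib3, Sesn2, and Eif4ebp1 were 0.033, 0.022, and 0.0072, so for these 4 genes the direction was not held. The median of the 10 members, −0.17, was −0.030 without WT replicate 1 and −0.075 without KO replicate 2. Keeping the KO cells with a Ywhaz UMI, which are left out of KO sums alone, gave −0.10 for Ddit3, −0.061 for Trib3, and −0.097 for Eif4ebp1, and −0.10 for the median. WT replicate 1 and KO replicate 2 also stood apart from the other libraries. WT replicate 1 had the deepest β cell–like cells (median 41993 UMIs), the highest share of hormone UMIs (52.3%), and 25.3% of these cells in a cluster rich in insulin mRNA with few genes, which held 6.85 to 14.3% elsewhere. In KO replicate 2, the β cell–like sum held markers of α cells at 1599 CPM (867 to 1156 in the other 5 libraries), of pancreatic polypeptide cells at 1116 (260 to 955), and of B cells at 35.5 (4.50 to 25.3), and no marker of these 3 lists was at 0. KO replicate 2 had the fewest genes per β cell–like cell, a median of 4150.5 against 4941 to 5562, and 383 of its 682 β cell–like cells fell in the second of 3 β clusters, a cluster that held fewer than 3 in 10 such cells in every other library. In the largest β cluster alone, a choice made after the data were seen, no member was called; Ddit3 was at 0.015, Atf4 at −0.046, Chac1 at −0.34, and Atf5 at 0.13. The part of other cell types' RNA in the member values was not tested.

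No gene of the wider lists was called between the genotypes in β cell–like cells without the replicate block, with adjusted p-values of 0.87 or more for those named. With the block, 2 of the 14 called genes were in these lists, Sdf2l1 at −0.59 (adjusted p = 0.0169) and Egr1 at −0.57 (adjusted p = 0.0101), both described below. Of 18 genes of the core machinery (eIF2 and eIF2B subunits, kinases, phosphatase subunits, and regulators) 14 had estimates below 0, with a median of −0.042. Gcn1, which activates the kinase GCN2, had the smallest p, at −0.15 (SE 0.0690, unadjusted p = 0.0589). Ppp1cb was at −0.090 (SE 0.0746), and Eif2b3 was above 0, at 0.13 (SE 0.111). The related transcription factors had 6 of 10 below 0, with Atf6, an ER stress sensor, at −0.16 (SE 0.101, unadjusted p = 0.144). Nfe2l2 was at −0.11 (SE 0.0824) and Nfe2l1 at −0.10 (SE 0.0913). Amino acid genes had 16 of 19 below 0 (median −0.10), with Slc7a11, the cystine transporter, at −0.42 (SE 0.182, unadjusted p = 0.0465) and Psat1, of serine synthesis, at −0.26 (SE 0.142, unadjusted p = 0.0973). Phgdh was at −0.16 (SE 0.0753), with every KO library below every WT library. In the tRNA synthetase list, which includes Xpot, 11 of 13 were below 0, with Nars at −0.28 (SE 0.110, unadjusted p = 0.0326). Vars was above 0, at 0.11 (SE 0.0831), and Lars was at −0.12 (SE 0.0929). Among other ATF4 targets 14 of 15 were below 0, with the ER oxidase gene Ero1l at −0.29 (SE 0.124, unadjusted p = 0.0457) and Herpud1, of ER-associated degradation, at −0.47 (SE 0.241, unadjusted p = 0.0838). Sqstm1 was at −0.34 (SE 0.168). Herpud1, like Dnajc3 of the core machinery, is counted again in the ER chaperone list below. Of all genes 49% were below 0. Without WT replicate 1, 9 of 18 core genes, 12 of 19 amino acid genes, and 5 of 13 genes of the tRNA synthetase list were below 0. Without KO replicate 2 these counts were 13, 15, and 5. Of the other ATF4 targets 10 were below 0 without WT replicate 1 and 11 without KO replicate 2.

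Estimates of the ER chaperone genes were nearly all below 0. Of 19 tested, 18 were below 0, 6 of them with an unadjusted p under 0.05, against 2.45% of all genes, and 7 lay lower in every KO than in every WT library, against 2.98% of all genes, with a median of −0.23 and none called without the block. With the block Sdf2l1 was called, Pdia4 was at −0.38 (adjusted p = 0.0526), and 12 of 19 had an unadjusted p under 0.05 and an estimate below 0, against 5.88% of all genes. Unblocked, Pdia4 was at −0.38 (SE 0.0845, unadjusted p = 0.00146), Sdf2l1 at −0.61 (SE 0.165, unadjusted p = 0.00529), and Dnajb9 at −0.40 (SE 0.117, unadjusted p = 0.00850). Summed, these 19 genes made up 4413 to 4910 CPM in WT and 3301 to 4083 in KO β cell–like cells, which did not overlap. The clusters of β cell–like cells were unevenly spread over the libraries. Hspa5, the ER chaperone BiP, averaged 838 CPM in the first cluster, 1428 in the second, and 1698 in the third. Its groups overlapped in the first, at 848 to 942 in WT and 636 to 857 in KO. They were apart in the second, at 1374 to 2897 in WT and 596 to 1046 in KO. They were also apart in the third, at 1868 to 2923 in WT and 816 to 1621 in KO. The part of the uneven spread in the list's values was not tested. In the first, largest cluster alone the median of the list was −0.066, with 16 of 19 below 0, 2 of them with an unadjusted p under 0.05, against 1.49% of all genes, and none called. Over all β cell–like cells but without WT replicate 1 the median was −0.12. Immediate early genes had 9 of 11 below 0 (median −0.29), with Egr1 at −0.56 (SE 0.10, unadjusted p = 0.000348), Ier2 at −0.41 (SE 0.141, unadjusted p = 0.0185), and Jun at −0.54 (SE 0.288). Their median was −0.031 without WT replicate 1, and their summed level, 595 to 667 in WT and 464 to 652 in KO, overlapped. The mitochondrial stress list, which holds Atf5, had a median of 0.065, with Oma1, the protease that relays mitochondrial stress, at 0.18 (SE 0.0976, unadjusted p = 0.104). Lonp1 was at 0.15 (SE 0.105).

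Outside β cells, where Ywhaz was not targeted, no member was called in any of the 7 other types, with backgrounds of 0% in α cell–like, endothelial-like, stellate cell–like, macrophage-like, and B cell–like cells, 0.00825% in δ cell–like cells, and 0.311% in T cell–like cells. Trib3 and Chac1 in macrophage-like and B cell–like cells, and Chac1 in T cell–like cells, were too low to be tested. At an unadjusted p under 0.05 stood Trib3 in endothelial-like cells, at −0.71 (SE 0.266, unadjusted p = 0.0223, adjusted p = 0.992), with 73.7, 38.2, and 35.4 in WT replicates 1 to 3 and 31.1, 27.3, and 29.3 in KO replicates 1 to 3. The 2 groups did not overlap there, and WT replicate 1 was far above the rest. So did 3 members in macrophage-like cells: Ddit3 at 0.59 (SE 0.213, unadjusted p = 0.0180, adjusted p = 0.895), Atf5 at 0.75 (SE 0.247, unadjusted p = 0.0110, adjusted p = 0.895), and Eif2ak3 at −0.64 (SE 0.278, unadjusted p = 0.0405, adjusted p = 0.895). Atf5 in macrophage-like cells read 23.7, 31.5, and 24.9 in WT replicates 1 to 3 and 35.0, 54.6, and 36.9 in KO replicates 1 to 3, with no overlap, and Ddit3 50.6, 37.9, and 45.7 in WT replicates 1 to 3 and 46.7, 63.5, and 77.7 in KO replicates 1 to 3, with KO replicate 1 below WT replicate 1. The share of β cell RNA in these sums was 1.87, 8.68, and 4.59% in the WT and 4.51, 16.8, and 8.27% in the KO replicates, and with it subtracted Atf5 in these cells was at 0.24 (unadjusted p = 0.539, adjusted p = 0.936), with overlapping groups, Ddit3 at 0.64 (unadjusted p = 0.0234, adjusted p = 0.879), and Eif2ak3 at −0.79 (unadjusted p = 0.0242, adjusted p = 0.879). In lymphocytes, Atf5 in B cell–like cells was at 0.96 (SE 0.309, unadjusted p = 0.00542, adjusted p = 0.498), and in T cell–like cells Ddit3 was at 0.67 (SE 0.292, unadjusted p = 0.0324, adjusted p = 0.530) and Asns at 0.65 (SE 0.270, unadjusted p = 0.0257, adjusted p = 0.50). With the β cell share of 3.43 to 38.4% and 12.3 to 37.4% subtracted, Atf5 in B cell–like cells was at 0.06 (unadjusted p = 0.906, adjusted p = 1.00), with a lower KO than WT mean level, Ddit3 in T cell–like cells at 0.94 (unadjusted p = 0.0304, adjusted p = 1.00), and Asns in T cell–like cells fell to 0 in 4 of 6 libraries and could not be tested. No member was called after subtraction in any of the 7 types, Trib3 in endothelial-like cells was at −0.77 (unadjusted p = 0.0181, adjusted p = 0.970), and Trib3 in δ cell–like cells, at 0.69 (unadjusted p = 0.00733, adjusted p = 0.999), and Ddit3 in endothelial-like cells, at 0.29 (unadjusted p = 0.0490, adjusted p = 0.970), then also had an unadjusted p under 0.05. B and T cell–like sums also rested on very few cells in some libraries.

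Whether the genotype effect in β cell–like cells differed from that in each other type was tested in a single limma-voom model. None of the 70 differences of members was called, beside 0.00734% of all genes (0.0147% against T cell–like cells), and 7 had an unadjusted p under 0.05. Against stellate cell–like cells the β effect was lower for Atf4 by a log2 difference of −0.37 (unadjusted p = 0.0322), for Ppp1r15a by −0.75 (unadjusted p = 0.0366), and for Chac1 by −0.94 (unadjusted p = 0.0136). For Ddit3 the differences were −0.82 (unadjusted p = 0.0209) against macrophage-like and −0.93 (unadjusted p = 0.0138) against T cell–like cells. Those of Atf5 against B cell–like cells, −0.82 (unadjusted p = 0.0141), and of Sesn2 against T cell–like cells, −0.67 (unadjusted p = 0.0398), completed the 7. These tests used the sums as counted, with the β cell RNA that the other types hold.

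**Figure D4:**
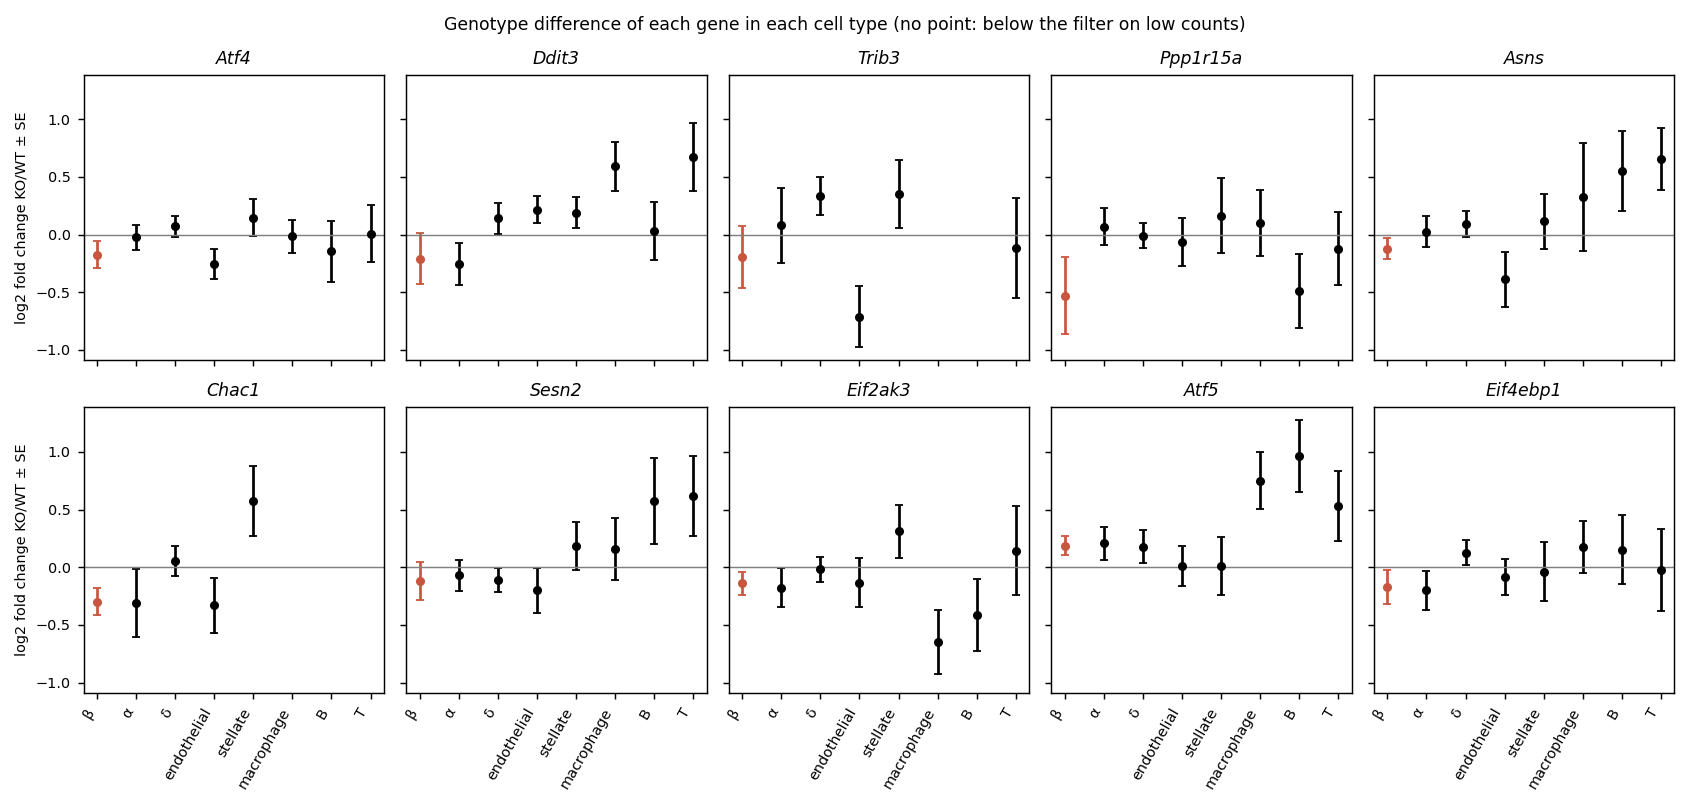
Log2 fold change KO against WT (edgeR, TMM; bars, ± SE) of each of the 10 genes in β cell–like cells (red) and 7 other types (black). Most β values lie a little below 0 and that of Atf5 above, macrophage-like and lymphocyte values spread widely, and no value was called.

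β cell–like cells fell into 3 clusters. The first 2 differed in insulin load, with 35.8 to 38.9% and 45.5 to 52.5% of UMIs from the insulin genes, and the third had 62.6 to 73.6% and few genes per cell, with medians of 1074 to 2846. Because the members were kept out of the clustering genes, their levels were compared between clusters within libraries, by 30 exact 2-sided sign-flip permutation tests (smallest p 0.03125, reached by 21). From the first to the second cluster 6 members were lower in 6 of 6 libraries, beside 65% of all 9302 genes, from the first to the third 8 were, beside 94.1%, and from the second to the third 7 were, beside 87.6%, so that these counts say nothing particular to the members. Mean levels in the first, the second, and the third cluster were 329, 249.5, and 69.3 CPM for Atf5, 163, 148, and 48.8 for Asns, 47.9, 37.3, and 8.88 for Chac1, and 260.1, 229, and 149 for Atf4. Ddit3 did not go with most genes, with 121, 133, and 125 (the first higher than the third in 3 of 6 libraries, exact p = 0.84375). Ppp1r15a, with 50.5, 43.2, and 54.3, was lower in the second than in the first cluster in 6 of 6 libraries. It did not go with most genes in the third (the first higher than the third in 4 of 6 libraries, exact p = 0.9375). Asns, Eif2ak3, and Eif4ebp1 were higher in the first than in the second cluster in only 4, 5, and 2 of 6 libraries. The share of insulin mRNA moves with these levels, since all are shares of the same UMIs, and its part was not tested.

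Within β cell–like cells, those with a Ddit3 UMI were set against those without. Each cell was first thinned to 5000 UMIs, because deeper cells show more genes, and a Ddit3 UMI was then found in 26.7 to 40.6% of cells per library, lowest in KO replicate 2. No cell type here was known to lack Ddit3, so a background share from free RNA could not be set beside these. Between 2 and 97 cells per library, most in WT replicate 2, were too shallow and left out. Before thinning, median depth was 22182 to 42714.5 UMIs in cells with a Ddit3 UMI and 21975 to 41751 in cells without; insulin genes took 34.4 to 41.3% of UMIs in the former and 41.2 to 47.8% in the latter.

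Of the 9 other members, 8 were higher in cells with a Ddit3 UMI in 6 of 6 libraries (exact 2-sided sign-flip permutation p = 0.03125 each, the smallest it can give, in 9 comparisons). Among 9301 genes 15.4% were higher in 6 of 6 libraries and 0.559% lower, and the median ratio of all genes was 1.05 to 1.17 in a library. Trib3 differed most, from a mean over libraries of 0.156 UMIs per cell (0.114 to 0.205) in cells without to 0.356 (0.190 to 0.430) in cells with a Ddit3 UMI, a ratio of 2.29 (SD 0.460, range 1.67 to 3.03, n = 6). The ranges over libraries overlapped at their ends, through KO replicate 2, and the cells with a Ddit3 UMI were higher within each library. Ppp1r15a had a ratio of 2.06 (SD 0.364, range 1.54 to 2.46, n = 6). Atf4 itself went from 1.03 to 1.55 UMIs per cell, a ratio of 1.51 (SD 0.154, range 1.34 to 1.74, n = 6). Ratios for Eif4ebp1, Sesn2, and Chac1 were 1.58 (SD 0.297, range 1.06 to 1.84, n = 6), 1.54 (SD 0.160, range 1.31 to 1.75, n = 6), and 1.44 (SD 0.178, range 1.25 to 1.74, n = 6). Asns and Atf5 were at 1.25 (SD 0.108, range 1.12 to 1.41, n = 6) and 1.25 (SD 0.131, range 1.11 to 1.44, n = 6). Higher here means a ratio above 1. The lowest Asns ratio, 1.12 in KO replicate 3, was below the median ratio of all genes in that library, 1.17. Eif2ak3 was higher in only 4 of 6 libraries, with a ratio of 1.19 (SD 0.414, range 0.798 to 1.88, n = 6) and an exact permutation p of 0.28125. In the largest β cluster alone, again 8 were higher, beside 9.83% of all genes, and Eif2ak3 was lower in 6 of 6 libraries, beside 1.20%. Eif2ak3 counts there were low, at 0.0156 to 0.125 UMIs per cell with and 0.0819 to 0.191 without a Ddit3 UMI.

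**Figure D5:**
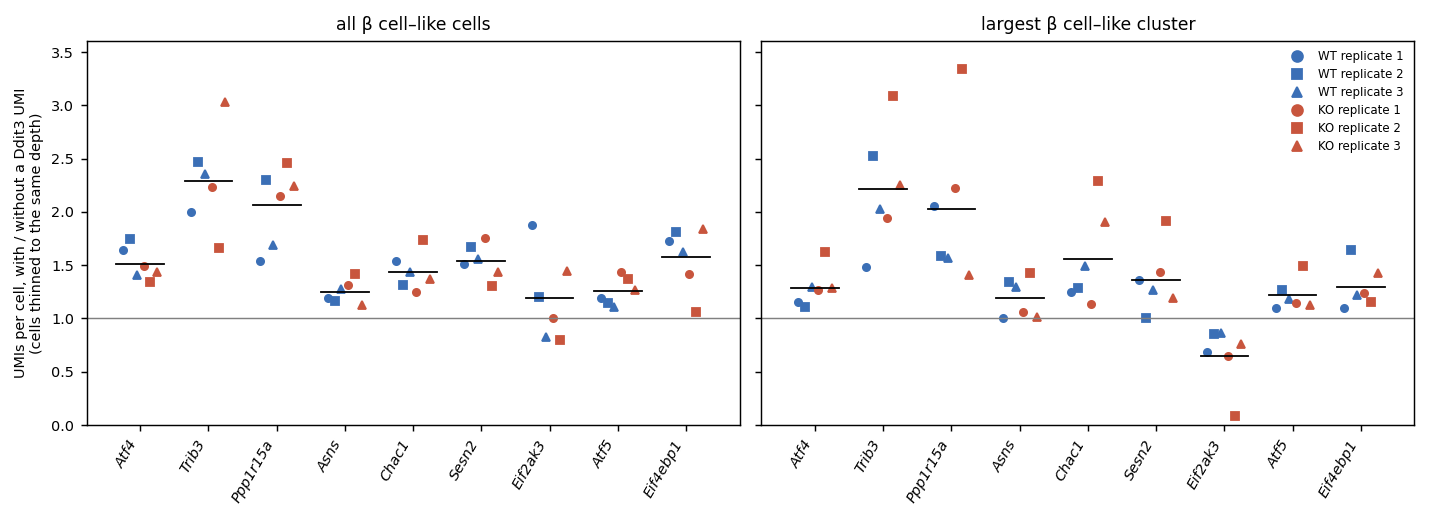
Ratio of the mean UMIs per cell in β cell–like cells with a Ddit3 UMI to those without (thinned to 5000 UMIs), a point per library (3 WT, 3 KO) and a line at the mean, for the 9 other genes, over all such cells (left) and the largest cluster (right). All points on the left lie above 1 for 8 genes, whereas those of Eif2ak3 lie on both sides.

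The genes whose levels ran most like those of Atf4 and Ddit3 were sought over 48 sums (8 types in 6 libraries) and 11794 genes, as a description in which sums of a library share depth and free RNA and lymphocyte sums can be shallow. For Atf4 they were Me3 (Pearson's r = 0.919), Eml1 (0.918), Dll4 (0.914), Slc9a3r2 (0.904), and Fam160b1 (0.898); Dll4 is a Notch ligand of endothelial cells, the type in which Atf4 was highest. Of the members, Ppp1r15a ran closest to Atf4, at 0.813, and Eif2ak3 least, at 0.169. For Ddit3 the 5 were AW549877 (0.893), Ppp2r3c (0.876), Ankrd10 (0.872), Rcbtb1 (0.861), and Egln2 (0.848), the last an oxygen-sensing prolyl hydroxylase.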

How the data were processed

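Islet cells of 3 WT and 3 β14-3-3ζKO mice were measured by 10x 3′ single-cell RNA sequencing. The authors deposited raw UMI counts per gene and cell barcode for each library; the submitters' processing notes name Cell Ranger 6.0.2, Seurat, and the mm10 genome. No column was left unused. Cells with at least 500 genes and under 10% mitochondrial UMIs were kept, and doublets were removed with Scrublet. Its automatic threshold was used where it called at least 0.5% of cells. That was in WT replicate 1 only, where it called 16 of 2977 cells, 0.54%. A rate of 0.8% per 1000 cells set the number elsewhere, at 3.78 to 8.43% of cells, so WT replicate 1 lost the smallest share. Clusters (Leiden, 2000 variable genes without the members and wider lists, 30 components, Scanpy 1.11.5) were named from markers; a cluster led by Ppy was left unnamed by a rule set after the clusters were seen. In β cell–like sums, cells of KO libraries with a Ywhaz UMI were left out.

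UMIs were summed per library and type. Genotypes were compared by edgeR 4.0.16 (quasi-likelihood test, TMM) in R 4.3.3, in β cell–like cells for genes detected in over 15% of the WT or of the KO cells. Types and genotype by type terms were tested with limma 3.58.1 (voom, library block). DESeq2 1.42.0 was an alternative, along with the other scalings, cell filters, subtraction of β cell RNA by the share of Ins2, and single libraries left out; the subtraction in comparisons of genotypes and the refits of the wider lists were added after the data were seen. Scripts were tested on simulated counts. Adjusted p-values are Benjamini-Hochberg values over all genes tested. Deviations of same-numbered WT and KO libraries from their group means correlated at 0.553, 0.501, and 0.228 over 9302 genes, and those of other pairs at 0.025 or below, so the numbers, given in the labels, were taken as pairs on the strength of the data.

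The members and lists were chosen with earlier results of these data known. Named genes are the 10 members, Ywhaz, Hspa5, genes of each wider list that were called or otherwise had the 3 lowest p-values, and the 5 genes most like Atf4 and Ddit3 in level. Of the 2 entries with the symbol Ddit3, one held no UMI and the other was used.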

Additional observations from a re-analysis of the deposited data

How the results depend on the processing

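No alternative called a member between the genotypes, in β cell–like cells or in any other type. The count of all genes called in β cell–like cells, 1, became 7 with DESeq2, 12 without the filter on low counts, 14 with the replicate block, and 9 without TMM (chosen after the data were seen), and was 1 to 2 when single libraries were left out (2 without KO replicate 3); the cause was not tested. With the block Sdf2l1 and Egr1 of the wider lists were called, and no member was. Single libraries left out moved Atf4 between −0.26 and −0.075, Ppp1r15a between −0.79 and −0.023, and Chac1 between −0.40 and −0.16. Among member estimates in β cell–like cells, Ddit3 reversed to 0.015 in the largest β cluster (chosen after the data were seen) and to 0.015 without KO replicate 2; Trib3 reversed to 0.066 and Sesn2 to 0.029 without KO replicate 2, and without WT replicate 1 Trib3, Sesn2, and Eif4ebp1 reversed to 0.033, 0.022, and 0.0072. With single libraries left out, Ddit3 ranged from −0.36 to 0.015, Trib3 from −0.41 to 0.066, Sesn2 from −0.26 to 0.029, and Eif4ebp1 from −0.27 to 0.0072. Against α cell–like cells 8 to 9 members were called; without TMM Ppp1r15a was −0.12 and Eif2ak3 −0.17. Against δ cell–like cells 7 to 8 were called, of which 2 were lower in β cell–like cells without TMM. Ppp1r15a there became −0.031 with no doublet calls, −0.0053 with types set by dominant hormone, −0.44 without TMM, −0.090 without WT replicate 1, and −0.069 without KO replicate 1 (up to 0.19 without KO replicate 2), and Chac1 −0.22 without TMM. Chac1 lost its call with types set by dominant hormone (0.041) and without WT replicates 1 or 2 or KO replicates 1 or 3 (0.13 to 0.33). The count of members higher in cells with a Ddit3 UMI was 8 to 9 of 9 throughout. The share of all genes beside it ranged from 9.83% in the largest β cluster to 24.3% with cells thinned to 10000 UMIs. Counts of 12 B cell–like and 10 T cell–like cells in single libraries limit what can be seen of members there.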

Other observations

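Atf5 was among the 10 leading genes of a shallow cluster of 3796 cells that was left unnamed because under 3 markers of any type defined it. The cells had a median of 1789.5 UMIs and 704 genes, and nearly all had an insulin gene as their leading hormone. Atf5 was at 305 ± 47.8 CPM there (SD, n = 6 libraries), Atf4 at 263 ± 45.7, Ddit3 at 115 ± 32.1, and Asns at 129 ± 20.3, and the other leading genes were AY036118, Gm42418, Lars2, Rnase4, Nupr1, Mt2, Mt1, Ids, and Cpe. The median mitochondrial share was 0.426% of UMIs. KO replicate 3 gave 1530 of these cells and WT replicate 1 gave 26. Leading genes were ranked by their fold over all other kept cells, lymphocytes included. Atf5 averaged 280 CPM in β cell–like cells, 329 in the largest β cluster, and 258 in another unnamed shallow cluster of 3268 insulin-led cells. A high Atf5 level was thus not particular to this cluster. As the cluster was found from these cells, its leading genes are a description, and no difference was tested.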
